A study of Mus musculus with 12 samples.

Results

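The 35 genes described here make, sense, take up, store and export cholesterol. They were chosen by symbol: each is a row of the count table whose Ensembl ID carries one of the listed symbols in GENCODE M21. All 35 were found among 43432 genes in the table, and all 35 were among the 16636 genes with enough counts to be tested. The members fall into 5 roles, which are 7 genes of the mevalonate steps, 11 of the steps from squalene to cholesterol, 5 of sterol sensing, 7 of uptake, transfer and storage, and 5 of export and its control by LXR.

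RNA was sequenced from sorted epithelium of the gallbladder and proximal small intestine of Flare25 mice, whose Il25 reporter makes a red fluorescent protein. Each tissue gave an IL-25+ and an IL-25- fraction of live single EpCAM+ cells, with 3 libraries per group: SI-pos and SI-neg from the small intestine, GB-pos and GB-neg from the gallbladder. All 12 libraries carry the reporter and are labelled as homeostasis, but HDM AF647, house dust mite material carrying a dye, given 1 day before collection is listed for the gallbladder libraries only. Comparisons between tissues therefore cannot be told apart from that label. The labels give neither age nor sex, and do not say whether libraries of a group came from separate mice, so that p-values measure only the spread between these libraries. A fraction is a population and not a pure cell type, and in such bulk samples fewer cells of a type and less RNA per cell cannot be told apart.

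Cholesterol is built from acetyl-CoA. The mevalonate steps make isoprene units and join them to farnesyl pyrophosphate, squalene synthase commits these to sterols, and a series of enzymes in the endoplasmic reticulum turns lanosterol into cholesterol. When sterols are scarce, SCAP carries the SREBP transcription factors to the Golgi for cleavage and INSIG proteins no longer hold them back, which switches on the genes of synthesis. When oxysterols build up, the nuclear receptors LXR switch on export pumps. In the gut, absorptive enterocytes take sterols from the lumen through NPC1L1, esterify them with SOAT2 and pump plant sterols back with ABCG5 and ABCG8, and in the gallbladder the epithelium faces bile that is rich in cholesterol. The main source of IL-25 in these epithelia is the tuft cell, a rare chemosensory type.

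Libraries held 23703449 to 64736650 counts, and 3 counts, the limit that a count of 0 allows, stood for 0.0421 to 0.122 CPM, the usual scaling of a count by the size of its library. These limits cover counting error only. The 10 tuft cell markers summed to 31724 to 38661 CPM in SI-pos and 24134 to 25423 CPM in GB-pos, against at most 250.2 CPM in SI-neg and 188 CPM in GB-neg. SI-pos libraries also held transcripts of absorptive cells: 10 enterocyte markers had a median of 34.4, 30.5 and 21.4% of their SI-neg mean in SI-pos 1 to 3. GB-neg 1 stood apart from the other gallbladder libraries with 5.26%, against 0.0303 to 0.162% in the other 5, although Mgam, Dpp4 and Slc2a2 were high in all 3 GB-neg libraries. Mitochondrially encoded genes took 7.13 to 34.9% of counts. Throughout, CPM values are scaled by TMM, with SD after ± for a group mean, and SE follows ± for a log2 fold change (n = 3 libraries per group). A gene was called where its edgeR quasi-likelihood p, adjusted by Benjamini-Hochberg over all 16636 genes, was under 0.05.

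Stretches upstream of 5 members are shown, because their transcripts carry the main contrasts: Hmgcs1 and Cyp51 for synthesis, Soat1 for storage, Abca1 for export and Npc1l1 for uptake. The sequences are those of RefSeq on GRCm38.p6, whose promoter table held 29 of the 35 members. Each runs 5′ to 3′ on the gene's strand and, unless cut, ends just before the start that RefSeq annotates. The stretches of Cyp51 and Soat1 are cut where an exon of the gene begins, to 201 and 247 bases of the 250. Capitals mark exact matches, on either strand, to TCACCCCAC (a form of the sterol regulatory element), CCAAT (the NF-Y box), GGGCGG (a GC box) and CACGTG (an E-box). Hmgcs1 lies at chr13:119690101-119690350 on the plus strand. The others are on the minus strand, Cyp51 at chr5:4104747-4104947, Soat1 at chr1:156474332-156474578, Abca1 at chr4:53159896-53160145 and Npc1l1 at chr11:6230246-6230495.
Hmgcs1: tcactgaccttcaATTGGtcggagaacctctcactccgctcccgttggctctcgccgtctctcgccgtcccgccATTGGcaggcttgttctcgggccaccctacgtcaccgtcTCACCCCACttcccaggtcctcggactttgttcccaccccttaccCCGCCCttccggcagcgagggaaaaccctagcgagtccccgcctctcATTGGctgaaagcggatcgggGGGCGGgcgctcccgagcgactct
Cyp51: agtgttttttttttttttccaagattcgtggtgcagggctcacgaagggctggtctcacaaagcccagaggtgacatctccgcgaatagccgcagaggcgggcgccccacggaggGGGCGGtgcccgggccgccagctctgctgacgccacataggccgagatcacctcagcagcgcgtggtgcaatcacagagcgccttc
Soat1: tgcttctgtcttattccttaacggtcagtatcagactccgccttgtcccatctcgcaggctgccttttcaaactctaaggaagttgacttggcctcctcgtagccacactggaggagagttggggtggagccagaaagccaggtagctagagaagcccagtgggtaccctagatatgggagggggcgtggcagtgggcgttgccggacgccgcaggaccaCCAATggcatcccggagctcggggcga
Abca1: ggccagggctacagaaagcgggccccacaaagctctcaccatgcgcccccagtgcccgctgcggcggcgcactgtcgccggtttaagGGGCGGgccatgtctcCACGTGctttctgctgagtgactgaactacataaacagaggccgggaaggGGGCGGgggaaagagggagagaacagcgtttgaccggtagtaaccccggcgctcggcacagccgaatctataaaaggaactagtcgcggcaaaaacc
Npc1l1: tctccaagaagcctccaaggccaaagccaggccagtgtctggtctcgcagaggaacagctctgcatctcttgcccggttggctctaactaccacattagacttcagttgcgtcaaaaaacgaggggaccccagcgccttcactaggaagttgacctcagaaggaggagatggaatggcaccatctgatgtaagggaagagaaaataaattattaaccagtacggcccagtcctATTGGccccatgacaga

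Of the 29 members Hmgcs1 alone held TCACCCCAC in its 250 upstream bases, 137 to 129 bases before the start, a string found upstream of 0.555% of 27025 genes. The NF-Y box CCAAT was upstream of 23 of 29 members and of 14 of the 15 synthesis enzymes in the table, against 37.5% of all genes and 39.9% of the tested genes in the table. The match of Cyp51 lies 29 to 25 bases before the start, in the part that is not printed. The GC box GGGCGG was upstream of 22 of 29 members and again 14 of 15 enzymes, against 35.4% of all genes and 60.4% of tested genes. CACGTG was found for 6 members, against 6.86% of all genes. AGGTCA repeated exactly with 4 bases between, the spacing known for LXR, was found for none of the 29 members. It was found for 0.0148% of all genes and 0% of the tested genes, so a match in a member was unlikely from the start. These letter matches are descriptions of the stretches searched and were not tested for binding. Only exact copies of each string were searched, so a gene without a match may still hold a variant of the element.

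In the small intestine, 12 of the 18 enzymes of cholesterol synthesis rose in IL-25+ cells, while Npc1l1 and Soat2 of uptake and storage and Abcg5 and Abca1 of export fell. Of the 35 members 13 were higher in SI-pos, against 14.5% of all genes tested, and 4 were lower, against 12.8%. Among the synthesis enzymes none fell, with 18 of 18 estimates above 0 and a median log2 fold change of 1.498, beside -0.07 over all genes tested. Summed over the 18 enzymes, the level was 2569, 2721 and 3600 CPM in SI-pos 1 to 3 and 780, 757 and 834 CPM in SI-neg 1 to 3, a ratio of means of 3.75. Of all 35 members, 27 had SI-pos and SI-neg libraries that did not overlap, which is 77.1%, beside 49.3% of all genes tested. Other features moved with the gate: 7 proliferation markers summed to 117 to 240.0 CPM in SI-pos and 515 to 1009 CPM in SI-neg, and mitochondrially encoded genes took 12.1 to 17.2% and 26.6 to 34.9% of counts. Without the mitochondrial genes 13 members were higher and 4 lower, beside 2303 higher and 2229 lower of the 16635 genes tested in that fit. The part of the proliferation markers was not tested. Markers of other epithelial types were also lower in SI-pos: the 6 goblet cell markers summed to 125 to 506 CPM against 4307 to 53882 CPM in SI-neg, 6 enteroendocrine markers to 20.8 to 279 CPM against 4799 to 10963 CPM, and 5 Paneth cell markers to 19.6 to 102 CPM against 515 to 4327 CPM. The part of these cells in the SI-neg values was not tested.

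In the gallbladder, 11 of the 18 synthesis enzymes rose in IL-25+ cells, and Npc1l1, Soat2, Abcg5 and Abcg8 fell. There 14 of 35 members were higher in GB-pos, against 12.4% of all genes tested, and 5 were lower, against 14.4%. None of the enzymes fell, 17 estimates were above 0, and the median log2 fold change was 1.11, beside -0.15 over all genes. The enzymes summed to 1631, 2232 and 1784 CPM in GB-pos 1 to 3 and to 925, 776 and 865 CPM in GB-neg 1 to 3, a ratio of 2.20. Libraries of GB-pos and GB-neg did not overlap for 22 of 35 members, which is 62.9%, beside 41.3% of all genes tested. The proliferation markers summed to 33.6 to 69.2 CPM in GB-pos and 89.2 to 143 CPM in GB-neg, and the mitochondrial share was 7.13 to 8.83% and 11.2 to 25.0%. Without the mitochondrial genes 14 members were higher and 5 lower, beside 2054 higher and 2407 lower of the 16635 genes tested in that fit. The part of the proliferation markers was not tested. The 9 gallbladder and cholangiocyte markers summed to 1088 to 1417 CPM in GB-pos and 10517 to 14819.5 CPM in GB-neg, and 7 hepatocyte markers to 25.8 to 49.3 CPM and 156 to 471 CPM. Their part in the gate values was not tested.

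**Figure D1:**
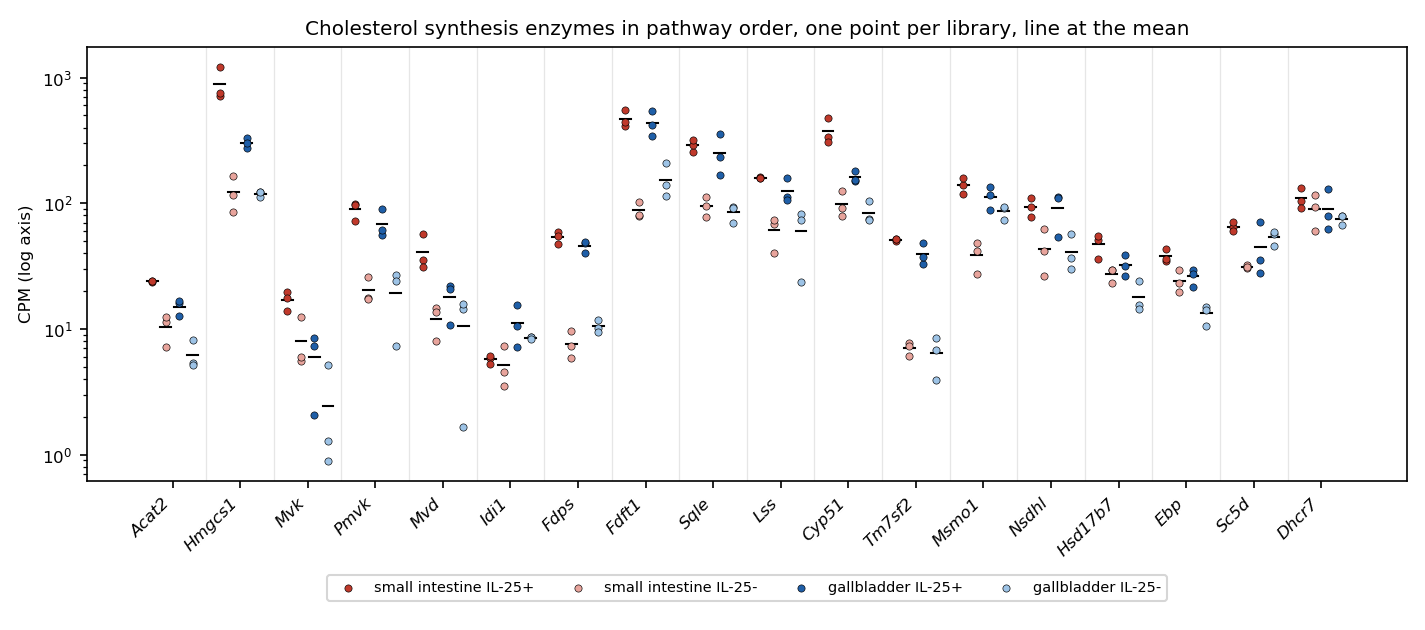
Levels of the 18 synthesis enzymes in pathway order, as CPM on a log axis, with 1 point per library (3 per group) and a line at the group mean. IL-25+ points lie above IL-25- points of the same tissue for most enzymes, while Idi1 and Dhcr7 points overlap in both tissues.

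Some calls were made in both tissues. Higher in both gates were Acat2, Hmgcs1, Pmvk, Fdps, Fdft1, Sqle, Cyp51, Tm7sf2, Nsdhl and Srebf2, which are 10 genes, 76.9% of the 13 called higher in the small intestine and 71.4% of the 14 in the gallbladder. Over all genes tested those shares were 48.9% and 56.9%. Npc1l1, Soat2 and Abcg5 were lower in both, 75% of the 4 called lower in the small intestine and 60% of the 5 in the gallbladder, beside 46.0% and 40.8% over all genes. Abca1 was lower in SI-pos and higher in GB-pos. The comparisons of the tissues and of the gates are built from the same 4 groups and so share libraries.

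The mevalonate steps begin with Acat2, which joins acetyl-CoA units, and Hmgcs1, the HMG-CoA synthase of the cytosol (ENSMUSG00000093930, chromosome 13, 119690379 to 119708260 in GRCm38). Hmgcs1 read 712, 757 and 1221 CPM in SI-pos 1 to 3 and 85.9, 166 and 117 CPM in SI-neg 1 to 3. It read 276, 331 and 301 CPM in GB-pos 1 to 3 and 123, 112 and 124 CPM in GB-neg 1 to 3. Each IL-25+ library lay above each IL-25- library of its tissue, and SI-pos 3 was the highest of all. The log2 fold change was 2.87 ± 0.27 in the small intestine (adjusted p = 6.22e-06), a ratio of means of 7.30, and 1.34 ± 0.25 in the gallbladder (adjusted p = 0.00158). Per kb of exon, Hmgcs1 was the highest of the 35 members in SI-pos, at 195 CPM per kb, and the second in GB-pos, at 65.9 CPM per kb.

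Farther down the mevalonate steps, Pmvk and Fdps rose in both tissues. Pmvk, the phosphomevalonate kinase, read 72.3, 98.6 and 97.0 CPM in SI-pos, 17.8, 17.3 and 26.1 CPM in SI-neg, 89.6, 55.8 and 61.6 CPM in GB-pos and 26.9, 23.97 and 7.37 CPM in GB-neg. Its groups did not overlap within a tissue, and its log2 fold changes were 2.13 ± 0.41 (adjusted p = 0.00181) in the small intestine and 1.83 ± 0.40 (adjusted p = 0.00449) in the gallbladder. Fdps makes farnesyl pyrophosphate, from which sterols, ubiquinone and protein prenyl groups branch (chromosome 3, 89093588 to 89101959). Fdps read 47.1, 59.1 and 55.3 CPM in SI-pos, 7.26, 5.87 and 9.62 CPM in SI-neg, 48.1, 49.3 and 40.4 CPM in GB-pos and 11.8, 10.2 and 9.51 CPM in GB-neg. Its 4 groups formed a high pair of IL-25+ and a low pair of IL-25- groups. The log2 fold changes of Fdps were 2.83 ± 0.27 (adjusted p = 7.64e-06) and 2.13 ± 0.26 (adjusted p = 6.38e-05).

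Acat2 also rose in both, from 10.3 ± 2.77 CPM in SI-neg to 24.01 ± 0.412 CPM in SI-pos and from 6.24 ± 1.74 CPM in GB-neg to 15.1 ± 2.15 CPM in GB-pos. Its log2 fold changes were 1.22 ± 0.35 (adjusted p = 0.0198) and 1.27 ± 0.35 (adjusted p = 0.0161). The small intestine call of Acat2 was lost on leaving out SI-neg 2 or any SI-pos library and with no filter on low counts (adjusted p 0.00228 to 0.0682 over 22 alternatives). In the gallbladder it was lost without GB-neg 2 or 3 and with no filter (0.000204 to 0.0651). The other mevalonate enzymes did not pass the test in either tissue. Mvd, the mevalonate pyrophosphate decarboxylase, was 41.0 ± 13.7 CPM in SI-pos against 12.1 ± 3.55 CPM in SI-neg (log2 fold change 1.77 ± 0.62, adjusted p = 0.0513), and passed in 6 of its alternatives, among them without GB-neg 3 (0.00429 to 0.167). The kinase Mvk was 17.0 ± 2.9 CPM against 7.98 ± 3.83 CPM in the small intestine and 5.97 ± 3.42 CPM against 2.45 ± 2.36 CPM in the gallbladder, and without GB-neg 3 its gallbladder value went from 1.29 to 2.44 (adjusted p = 0.0242, in a range of 0.0242 to 0.444). Its small intestine value passed with limma-voom (1.15, adjusted p = 0.0332). Idi1, the isomerase that makes dimethylallyl pyrophosphate, was between 3.5 and 15.7 CPM in every library, with log2 fold changes of 0.17 ± 0.46 and 0.38 ± 0.46.

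The steps from squalene to cholesterol had 8 of 11 members higher in SI-pos and 7 of 11 higher in GB-pos, beside 14.5% and 12.4% of all genes tested. Fdft1 is squalene synthase, the first enzyme given to sterols alone (chromosome 14, 63145150 to 63179578). It read 414, 443 and 552 CPM in SI-pos, 102, 79.9 and 81.3 CPM in SI-neg, 340.4, 547 and 422 CPM in GB-pos and 139.6, 114 and 209.6 CPM in GB-neg. The IL-25+ libraries all lay above the IL-25- libraries, with log2 fold changes of 2.42 ± 0.25 (adjusted p = 1.74e-05) and 1.498 ± 0.25 (adjusted p = 0.000627). Exons of Fdft1 overlap those of Ctsb on the other strand, and reads without strand cannot be divided between them. Ctsb had log2 fold changes of -0.04 ± 0.17 in the small intestine and -1.33 ± 0.17 in the gallbladder. The part of Ctsb reads in the Fdft1 values was not tested.

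Sqle, the squalene epoxidase and a slow step of the pathway, read 255, 293 and 318 CPM in SI-pos, 112, 94.8 and 78.2 CPM in SI-neg, 169, 353 and 235 CPM in GB-pos and 93.4, 70.1 and 91.7 CPM in GB-neg. Its groups were apart within each tissue, with log2 fold changes of 1.61 ± 0.25 (adjusted p = 0.000459) and 1.57 ± 0.25 (adjusted p = 0.000541). Tm7sf2, a sterol C14 reductase (chromosome 19, 6062821 to 6068373), had the widest gallbladder step of the enzymes. It read 50.1, 51.5 and 52.0 CPM in SI-pos, 7.71, 6.1 and 7.33 CPM in SI-neg, 32.7, 37.1 and 48.0 CPM in GB-pos and 6.83, 8.41 and 3.93 CPM in GB-neg. Every IL-25+ library was above 30 CPM and every IL-25- library under 10 CPM, with log2 fold changes of 2.86 ± 0.32 (adjusted p = 2.84e-05) and 2.62 ± 0.32 (adjusted p = 5.33e-05). An overlapping gene, Vps51, had means of 7.98 to 10.5 CPM over the 4 groups.

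Cyp51, the lanosterol C14 demethylase (chromosome 5, 4081145 to 4104746), read 338, 309 and 473 CPM in SI-pos and 79.4, 91.6 and 125 CPM in SI-neg. In the gallbladder it read 150.3, 181 and 154 CPM in GB-pos and 104, 75.2 and 73.9 CPM in GB-neg. The groups did not overlap, and the step was 1.92 ± 0.23 (adjusted p = 5.93e-05) in the small intestine and 0.94 ± 0.23 (adjusted p = 0.00831) in the gallbladder, as log2 fold changes. Akap9, whose exons overlap those of Cyp51 on the other strand, also rose in the small intestine, by 0.96 ± 0.17 (adjusted p = 0.000908), and was at -0.04 ± 0.17 in the gallbladder. How many of the reads of either gene belong to the other was not tested.

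Msmo1, the C4-methylsterol oxidase, rose in the small intestine. It read 118, 139.8 and 158 CPM in SI-pos, 27.2, 47.9 and 41.7 CPM in SI-neg, 89.1, 134 and 116 CPM in GB-pos and 91.3, 73.8 and 93.1 CPM in GB-neg. SI-neg was the one low group, and GB-pos 1 lay within the range of GB-neg. Its log2 fold changes were 1.83 ± 0.24 (adjusted p = 0.000123) in the small intestine and 0.39 ± 0.24 (adjusted p = 0.243) in the gallbladder. The difference between these steps was -1.44 ± 0.34 (adjusted p = 0.0166) and passed in 21 of 21 alternatives.

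Of the remaining sterol enzymes, Nsdhl, which works with Msmo1 in removing C4 methyl groups, was called higher in both tissues. It went from 43.4 ± 17.7 CPM to 93.8 ± 16.1 CPM in the small intestine (1.11 ± 0.36, adjusted p = 0.0349) and from 41.2 ± 14.0 CPM to 92.2 ± 33.1 CPM in the gallbladder (1.16 ± 0.36, adjusted p = 0.029), where GB-pos 1 lay under GB-neg 3. Both calls of Nsdhl were fragile. The first was lost without libraries 2 or 3 of SI-pos, without libraries 1 or 2 of SI-neg and with RLE size factors (adjusted p 0.00971 to 0.116 over 22 alternatives), and the second without GB-pos 2 or 3 or GB-neg 1 or 2 and without SI-neg 3 and GB-neg 1 together (0.00501 to 0.107). Lss, the lanosterol synthase, was higher in SI-pos at 159.7 ± 0.809 CPM against 60.9 ± 17.8 CPM (1.39 ± 0.38, adjusted p = 0.0155), a call lost without SI-neg 2 (1.16, adjusted p = 0.0601 in a range of 0.000723 to 0.0601). In the gallbladder Lss was 126 ± 29.3 CPM against 59.9 ± 31.8 CPM (1.07 ± 0.38, adjusted p = 0.0507) and passed in 8 of 22 alternatives, among them without SI-neg 2 or GB-neg 1 (0.0203 to 0.158).

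Sc5d, a lathosterol desaturase, was higher in SI-pos at 65.04 ± 5.21 CPM against 31.2 ± 0.727 CPM (1.06 ± 0.30, adjusted p = 0.0195). That call was lost without SI-pos 3, without SI-neg 1, 2 or 3, and without SI-neg 3 and GB-neg 1 together, with estimates of 1.00 to 1.08 (adjusted p 0.00246 to 0.0687 over 22 alternatives). In the gallbladder Sc5d was 45.04 ± 23.2 CPM in GB-pos and 53.9 ± 7.16 CPM in GB-neg (-0.26 ± 0.30, adjusted p = 0.558). GB-pos 2, at 71.5 CPM, held that value up: without it the estimate was -0.77 (adjusted p = 0.0336, in a range of 0.0336 to 0.976).

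Ebp, the sterol isomerase, was higher in GB-pos at 26.2 ± 4.17 CPM against 13.3 ± 2.32 CPM (0.98 ± 0.27, adjusted p = 0.0171), a call lost without GB-pos 1 (0.87) or GB-neg 3 (0.84), with adjusted p of 0.00157 to 0.0604. In the small intestine Ebp was 38.2 ± 4.57 CPM against 24.3 ± 5.04 CPM (0.65 ± 0.27, adjusted p = 0.0898), and passed with limma-voom (0.75, adjusted p = 0.0145). Hsd17b7, a sterol ketoreductase, was called higher in GB-pos (32.3 ± 6.2 CPM against 18.1 ± 5.42 CPM, 0.84 ± 0.29, adjusted p = 0.0453). This held in 7 of 22 alternatives only: it was lost without each of the SI libraries and without GB-pos 1 or 2 or GB-neg 2 or 3, with estimates of 0.67 to 0.84, and also with limma-voom, with no filter on low counts and with the groups alone, among others (adjusted p 0.015 to 0.141). In the small intestine Hsd17b7 was 47.4 ± 10.1 CPM in SI-pos and 27.4 ± 3.46 CPM in SI-neg, without overlap (0.79 ± 0.29, adjusted p = 0.0567). It passed there in 5 of 22 alternatives, which were limma-voom, a stricter filter, the groups alone and leaving out SI-pos 1 or GB-neg 1 (0.0198 to 0.19). Dhcr7, the reductase of the last step, was between 59.9 and 134 CPM in every library, and its 4 groups overlapped in each comparison.

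**Figure D2:**
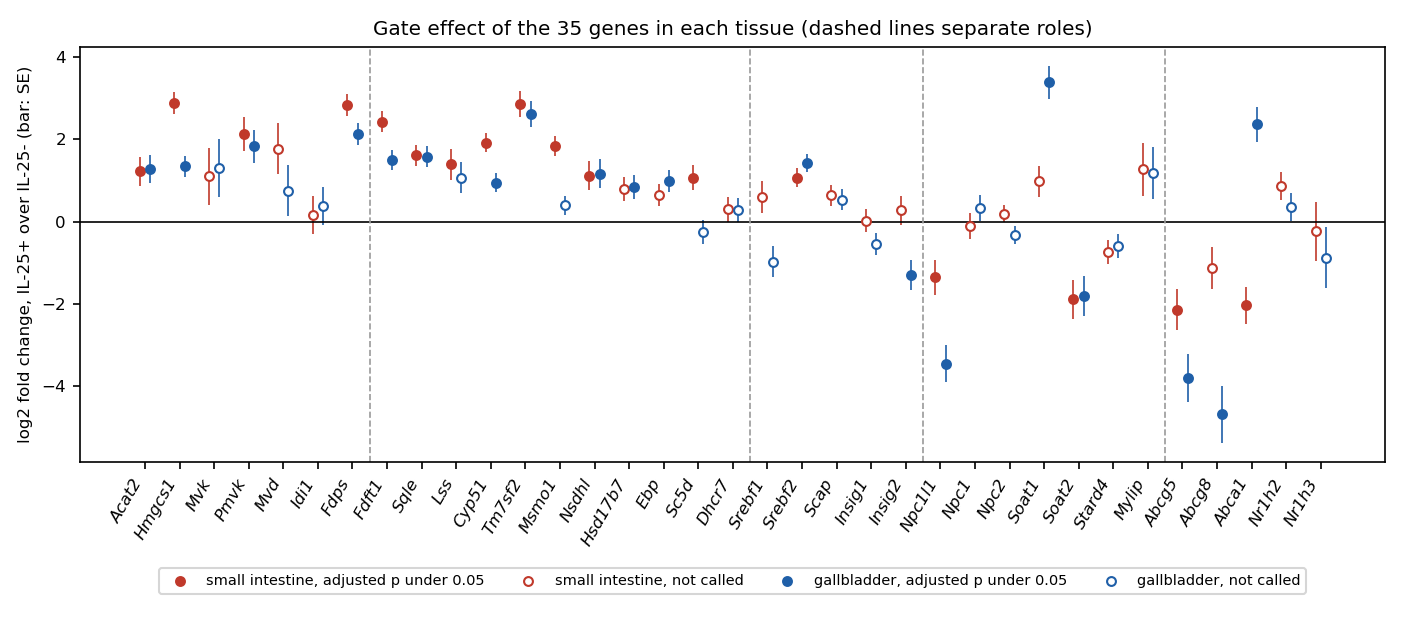
Log2 fold change of IL-25+ over IL-25- cells for the 35 members, small intestine and gallbladder side by side, with bars of 1 SE and filled points where the adjusted p was under 0.05. Dashed lines part the roles, and the enzymes at the left lie above 0 with the gallbladder estimate of Sc5d, -0.26, as the exception.

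Among the genes of sterol sensing, Srebf2 rose in both tissues. Srebf2 encodes SREBP2, the activator of the synthesis genes (chromosome 15, 82147181 to 82205379). It read 250.1, 244 and 322 CPM in SI-pos, 134, 115 and 141 CPM in SI-neg, 296, 392.3 and 237 CPM in GB-pos and 123, 134 and 87.2 CPM in GB-neg. All 6 IL-25+ libraries lay above all 6 IL-25- libraries, with log2 fold changes of 1.07 ± 0.22 (adjusted p = 0.00333) and 1.42 ± 0.23 (adjusted p = 0.000453). Its carrier Scap was 35.9 ± 3.53 CPM in SI-pos, 23.1 ± 4.33 CPM in SI-neg, 34.6 ± 3.54 CPM in GB-pos and 23.9 ± 5.51 CPM in GB-neg. The groups of Scap did not overlap within a tissue, but its log2 fold changes of 0.64 ± 0.26 (adjusted p = 0.0862) and 0.53 ± 0.26 (adjusted p = 0.146) did not pass. The small intestine value passed with limma-voom (0.60, adjusted p = 0.0472).

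Of the 2 INSIG genes, Insig2 passed in the gallbladder and Insig1 in neither gate. Insig2, one of the proteins that hold SCAP in the endoplasmic reticulum, read 10.6, 25.9 and 13.5 CPM in GB-pos and 38.9, 38.3 and 45.8 CPM in GB-neg, and 31.1, 18.9 and 25.6 CPM in SI-pos and 15.7, 27.0 and 19.97 CPM in SI-neg. GB-neg was the high group, and it did not overlap GB-pos. Insig2 fell in GB-pos by 1.30 ± 0.36 on the log2 scale (adjusted p = 0.0165), a call lost without GB-pos 1 (-1.07) or GB-pos 3 (-1.18), with adjusted p of 0.00323 to 0.061, and was at 0.27 ± 0.35 in the small intestine. The difference between the tissues did not pass (-1.57 ± 0.50, adjusted p = 0.0683), though it did with limma-voom and without GB-pos 2 (0.0161 to 0.154). Insig1, itself a target of SREBP2, was 73.3 ± 15.9 CPM in SI-pos, 72.1 ± 15.7 CPM in SI-neg, 81.2 ± 25.9 CPM in GB-pos and 119 ± 26.6 CPM in GB-neg, with groups that overlapped in both gates. Its gallbladder estimate was -0.55 ± 0.27 (adjusted p = 0.152), and it passed in 1 of 22 alternatives, without GB-pos 2 (-0.85, adjusted p = 0.0421, in a range of 0.0421 to 0.395).

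Srebf1 encodes SREBP1, which mainly drives fatty acid synthesis. It was 33.6 ± 5.57 CPM in SI-pos and 22.2 ± 7.93 CPM in SI-neg, and 29.5 ± 8.59 CPM in GB-pos and 58.0 ± 25.8 CPM in GB-neg. Neither gate passed, with log2 fold changes of 0.60 ± 0.38 (adjusted p = 0.271) and -0.97 ± 0.38 (adjusted p = 0.075). The second passed with limma-voom (-1.19, adjusted p = 0.0211) and without GB-neg 3, the lowest of its group at 31.1 CPM (-1.28, adjusted p = 0.0217), over a range of 0.0211 to 0.284. Exons of Srebf1 overlap those of Rai1 on the other strand, and reads without strand cannot be divided between them. Rai1 had means of 33.4 CPM in SI-pos, 26.8 CPM in SI-neg, 40.0 CPM in GB-pos and 59.5 CPM in GB-neg. How many of the reads of either gene belong to the other was not tested.

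**Figure D3:**
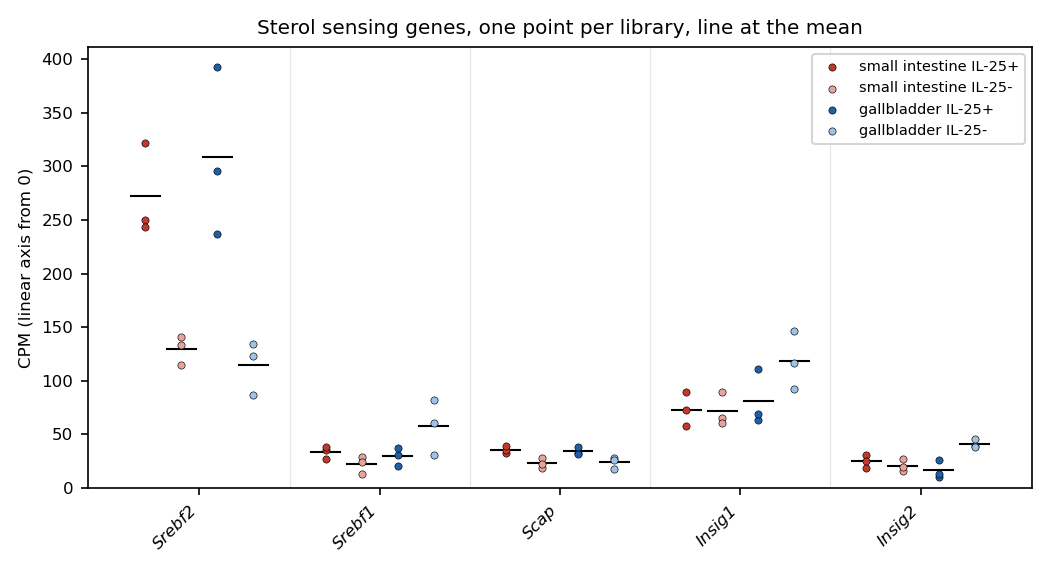
Levels of the 5 sterol sensing genes as CPM on a linear axis, with 1 point per library and a line at the group mean. For Srebf2 all IL-25+ points are at 237 CPM or more and all IL-25- points at 141 CPM or less, while Insig2 is highest in GB-neg.

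Of the 7 genes of sterol uptake, transfer and storage none rose and 2 fell in SI-pos, and 1 rose and 2 fell in GB-pos. Over all genes tested, 14.5% rose and 12.8% fell in SI-pos, and 12.4% rose and 14.4% fell in GB-pos. With 7 genes, counts of 1 or 2 do not set the role apart from these shares. Npc1l1, the sterol importer of the brush border (chromosome 11, 6211013 to 6230143), read 325, 345 and 297 CPM in SI-pos and 682, 1013 and 785 CPM in SI-neg. It read 3.63, 16.1 and 6.65 CPM in GB-pos and 109, 64.4 and 114 CPM in GB-neg. The 4 groups did not overlap, in the order SI-neg, SI-pos, GB-neg, GB-pos, and in SI-neg Npc1l1 was the highest of the 35 members per kb of exon, at 185 CPM per kb. The log2 fold change was -1.36 ± 0.42 in the small intestine (adjusted p = 0.0293) and -3.45 ± 0.45 in the gallbladder (adjusted p = 0.000144), where GB-neg was 10.9 times as high as GB-pos.

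The small intestine call of Npc1l1 was lost in 8 of 22 alternatives, among them no filter on low counts, leaving out SI-pos 1, 2 or 3 or SI-neg 2 or 3, and leaving out SI-neg 3 with GB-neg 1 (adjusted p 1.79e-05 to 0.101). Without each of these 5 libraries the estimate was -1.41 to -1.19. In SI-pos 1 to 3 Npc1l1 stood at 39.4, 41.8 and 35.9% of its SI-neg mean, beside 34.4, 30.5 and 21.4% for the enterocyte markers. The part of enterocyte RNA in the SI-pos value was not tested. In the gallbladder the median of the markers was at 0.0303 to 0.126% in GB-pos and Npc1l1 at 0.439 to 1.94%. In GB-neg 1 to 3 that median was at 5.26, 0.162 and 0.109% and Npc1l1 at 13.1, 7.79 and 13.8%. Single markers spread widely around these medians. The highest stood at 9.75, 14.8 and 11.8% in GB-pos 1 to 3 and at 145, 141 and 229% in GB-neg 1 to 3. Without GB-pos 2, its highest library in that group, the gallbladder estimate was -4.23.

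Soat2 and Soat1 both esterify cholesterol for storage or for lipoproteins. Soat2, the form of enterocytes and hepatocytes (chromosome 15, 102150526 to 102163469), read 25.8, 21.6 and 20.5 CPM in SI-pos, 66.3, 109 and 75.6 CPM in SI-neg, 3.19, 1.15 and 6.43 CPM in GB-pos and 17.2, 11.2 and 9.32 CPM in GB-neg. IL-25- libraries were the higher ones in both tissues without overlap, with log2 fold changes of -1.88 ± 0.48 (adjusted p = 0.0104) and -1.80 ± 0.48 (adjusted p = 0.0137). The gallbladder call was lost with the 2 compared groups fitted alone and without SI-neg 3 and GB-neg 1 together (adjusted p 0.00191 to 0.09), and without GB-pos 3 the estimate was -2.54. Soat2 in SI-pos stood at 30.9, 25.9 and 24.5% of its SI-neg mean, close beside the enterocyte markers, and what part those cells have in it was not tested.

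Soat1, the form found in most tissues (chromosome 1, 156424525 to 156474331), went the other way. It read 167, 210.4 and 197 CPM in SI-pos and 162, 46.3 and 84.3 CPM in SI-neg, and 80.8, 147 and 143 CPM in GB-pos and 10.9, 10.7 and 13.9 CPM in GB-neg. GB-neg stood far below the rest, and SI-neg 1 nearly reached SI-pos 1. Soat1 rose by 3.38 ± 0.40 in GB-pos (adjusted p = 4.4e-05), a ratio of means of 10.4, while its small intestine value of 0.97 ± 0.37 did not pass (adjusted p = 0.0651). That value leaned on SI-neg 1: without it the log2 fold change was 1.55 (adjusted p = 0.00534, in a range of 0.00534 to 0.189). With all libraries kept, the small intestine value passed with limma-voom (0.99, adjusted p = 0.00687). The 2 esterifying enzymes thus had opposite signs in GB-pos, where Soat1 was 123 ± 36.9 CPM and Soat2 3.59 ± 2.66 CPM.

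The genes of sterol transport out of the lysosome and between membranes did not pass in either gate. Npc1, the lysosomal sterol exporter, read 52.5, 40.8 and 55.6 CPM in SI-pos, 67.5, 60.5 and 32.6 CPM in SI-neg, 86.8, 39.2 and 64.6 CPM in GB-pos and 55.9, 44.5 and 51.8 CPM in GB-neg. Its partner Npc2 read 48.8, 51.7 and 62.4 CPM, 52.3, 39.2 and 50.8 CPM, 46.8, 52.3 and 46.5 CPM, and 63.9, 67.2 and 51.3 CPM in the same order of groups. The groups of both overlapped in every comparison. Stard4, a cytosolic sterol carrier and a known SREBP2 target, read 196, 116 and 163 CPM in SI-pos, 216, 271 and 308 CPM in SI-neg, 81.4, 187 and 185 CPM in GB-pos and 249.7, 229 and 202 CPM in GB-neg. Unlike the enzymes, its IL-25- libraries were the higher ones in both tissues without overlap, at -0.74 ± 0.29 (adjusted p = 0.0757) and -0.59 ± 0.29 (adjusted p = 0.154). The first passed in 5 of 22 alternatives, RLE size factors, DESeq2, limma-voom, the groups alone and without GB-pos 1 (0.011 to 0.253). Mylip, the ligase IDOL that sends lipoprotein receptors to lysosomes, was 4.54 ± 1.74 CPM in SI-pos, 1.88 ± 0.452 CPM in SI-neg, 10.3 ± 0.97 CPM in GB-pos and 4.58 ± 3.54 CPM in GB-neg, and its log2 fold changes of 1.27 ± 0.64 and 1.18 ± 0.63 did not pass. The gallbladder value passed with limma-voom alone (1.85, adjusted p = 0.0127, in a range of 0.0127 to 0.473).

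Abcg5 and Abcg8 encode the paired parts of 1 sterol pump and lie head to head on chromosome 17 (84658234 to 84683011 and 84676302 to 84700333), with exons that overlap, so reads in the shared stretch cannot be divided. Abcg5 read 27.6, 30.4 and 19.9 CPM in SI-pos, 106, 136 and 99.3 CPM in SI-neg, 0.029, 0.334 and 0.511 CPM in GB-pos and 6.01, 3.9 and 2.43 CPM in GB-neg. Abcg8 read 57.5, 38.0 and 46.4 CPM, 91.7, 129.9 and 89.1 CPM, 0.029, 0.297 and 0.0807 CPM, and 5.2, 0.974 and 3.7 CPM in the same order. For both genes the 4 groups were apart, and the GB-pos values stood on 1, 9 and 19 counts of Abcg5 and 1, 8 and 3 counts of Abcg8. GB-pos 1 and 3 for Abcg8, and GB-pos 1 for Abcg5, were at or under the limit that a count of 0 allows.

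Abcg5 fell in SI-pos by 2.14 ± 0.50 on the log2 scale (adjusted p = 0.00649) and Abcg8 was at -1.13 ± 0.52 (adjusted p = 0.124), passing with limma-voom, with the groups alone and without GB-neg 2 (0.00148 to 0.295). In the gallbladder the log2 fold changes were -3.81 ± 0.58 for Abcg5 (adjusted p = 0.000357) and -4.68 ± 0.69 for Abcg8 (adjusted p = 0.000291). They were -4.58 for Abcg5 without GB-pos 3 and -5.82 for Abcg8 without GB-pos 2. In SI-pos 1 to 3, Abcg5 stood at 24.2, 26.6 and 17.4% and Abcg8 at 55.5, 36.7 and 44.8% of the SI-neg mean. In GB-neg 1 to 3 Abcg5 stood at 5.27, 3.42 and 2.14%, while the median of the enterocyte markers was at 5.26, 0.162 and 0.109%. Single enterocyte markers reached 145, 141 and 229% there. The 7 hepatocyte markers summed to 156, 275 and 471 CPM. What part enterocyte and hepatocyte transcripts have in the values was not tested.

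**Figure D4:**
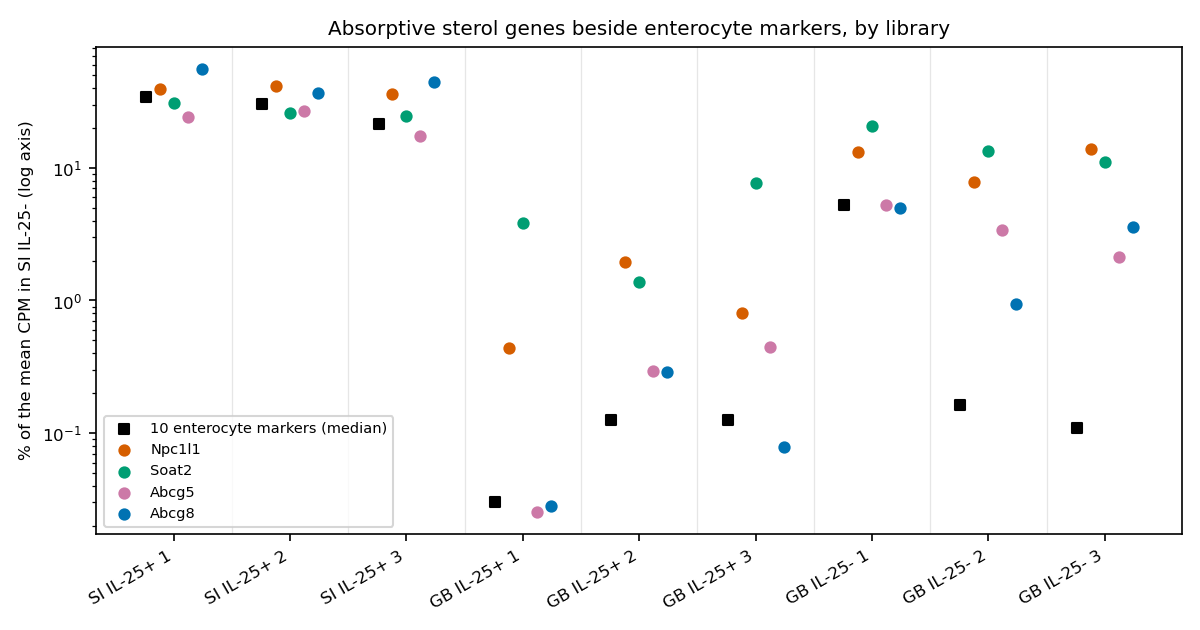
Npc1l1, Soat2, Abcg5 and Abcg8 beside the median of 10 enterocyte markers, each as a percentage of its mean CPM in SI-neg on a log axis, for the 9 other libraries. In SI-pos the genes lie at 17.4 to 55.5% beside marker medians of 21.4 to 34.4%, while in GB-neg 2 and 3 Npc1l1 lies at 7.79 and 13.8% beside marker medians of 0.162 and 0.109%. Single markers, not drawn, ran from 0.0512 to 141% in GB-neg 2 and from 0.0548 to 229% in GB-neg 3, so Npc1l1 lies within their spread.

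Abca1, which loads cholesterol onto apolipoproteins at the cell surface, was called in both gates with opposite signs (chromosome 4, 53030787 to 53159895). It read 1.43, 1.88 and 2.31 CPM in SI-pos, 14.1, 4.54 and 4.44 CPM in SI-neg, 182, 238 and 211 CPM in GB-pos and 24.6, 53.5 and 45.2 CPM in GB-neg. The 4 groups did not overlap, and their order was GB-pos, GB-neg, SI-neg, SI-pos. Abca1 rose in GB-pos by 2.36 ± 0.43 on the log2 scale (adjusted p = 0.00128) and fell in SI-pos by 2.03 ± 0.44 (adjusted p = 0.00446). The small intestine value leaned on SI-neg 1 and was -1.26 without it (adjusted p = 0.0165), and the call was lost with limma-voom (5.39e-05 to 0.0672 over 22 alternatives). Macrophages express Abca1 strongly. Their 7 markers summed to 3.04 to 24.5 CPM in GB-pos, where C1qa, C1qb and C1qc had 0 counts, and to 19.98 to 44.9 CPM in GB-neg. Their part in the Abca1 values was not tested.

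The LXR genes themselves did not follow Abca1. Nr1h2 encodes LXRβ and was 56.9 ± 9.54 CPM in SI-pos, 31.4 ± 4.79 CPM in SI-neg, 28.7 ± 14.3 CPM in GB-pos and 22.5 ± 5.46 CPM in GB-neg. Its small intestine value of 0.86 ± 0.34 did not pass (adjusted p = 0.0768), but passed with limma-voom, with the groups alone and without GB-pos 1 or 3 (0.0103 to 0.199). Nr1h3 encodes LXRα and read 15.1, 26.8 and 23.3 CPM in SI-pos, 19.0, 28.0 and 30.1 CPM in SI-neg, 5.89, 1.08 and 0.619 CPM in GB-pos and 6.95, 5.64 and 1.33 CPM in GB-neg. All gallbladder libraries lay below all small intestine libraries, and neither gate passed the test.

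**Figure D5:**
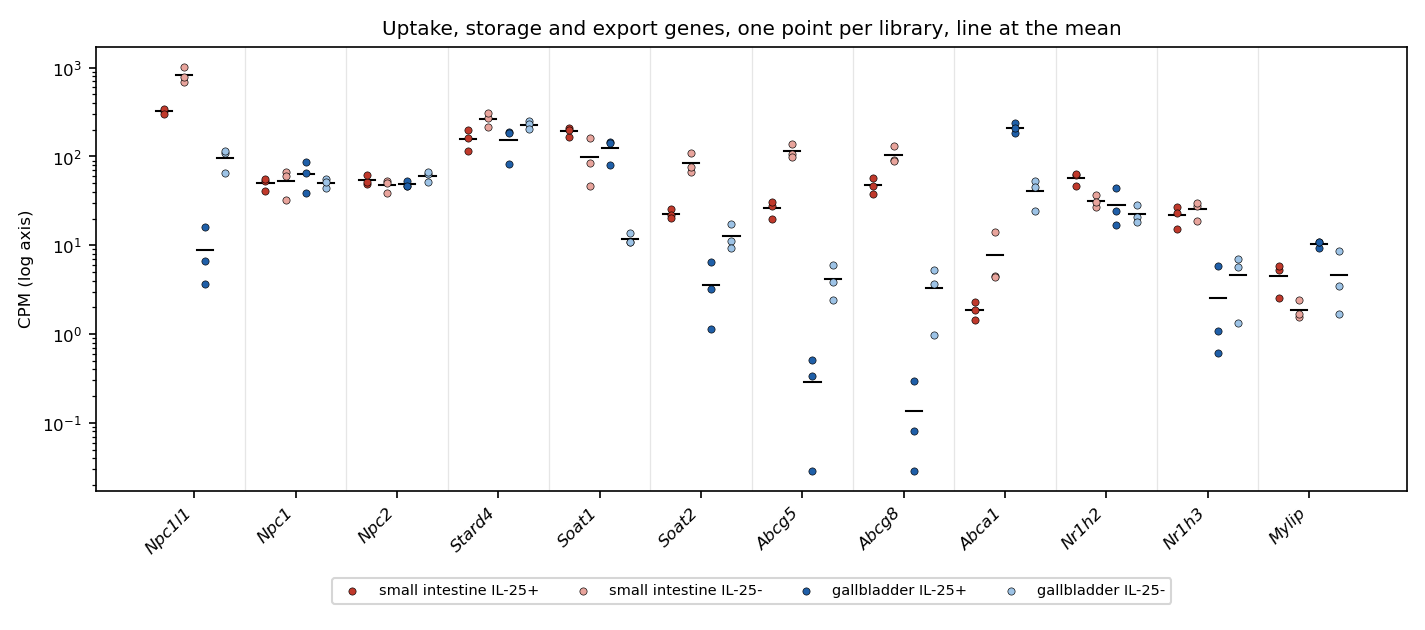
Levels of the uptake, storage, export and LXR genes as CPM on a log axis, with 1 point per library and a line at the group mean. Npc1l1, Soat2, Abcg5 and Abcg8 are highest in SI-neg and lowest in GB-pos, whereas Abca1 is highest in GB-pos at 182 to 238 CPM.

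Between tissues, IL-25+ cells differed in 2 of the 18 enzymes and in 6 of the 12 genes of uptake, storage, export and LXR. Of 35 members 1 was higher in GB-pos than in SI-pos, against 10.5% of all genes, and 7 were lower, against 13.1%, and all 8 calls held in each of 21 alternatives. Abca1 was the one higher, by 6.81 ± 0.53 on the log2 scale (adjusted p = 3.98e-06), a ratio of means of 112. Lower in GB-pos were Abcg8 (-8.51 ± 0.76, adjusted p = 9.42e-06), Abcg5 (-6.45 ± 0.63, adjusted p = 1.71e-05), Npc1l1 (-5.20 ± 0.49, adjusted p = 1.77e-05), Nr1h3 (-3.10 ± 0.79, adjusted p = 0.0124) and Soat2 (-2.65 ± 0.49, adjusted p = 0.00185). The 2 enzymes called were Hmgcs1 (-1.57 ± 0.25, adjusted p = 0.000721) and Cyp51 (-1.21 ± 0.23, adjusted p = 0.00209). Single GB-pos libraries moved 5 of these: Abcg8 was -9.61 and Npc1l1 -5.94 without GB-pos 2, Abcg5 was -7.19 and Soat2 -3.34 without GB-pos 3, and Nr1h3 was -4.65 without GB-pos 1.
The values of SI-pos for Npc1l1, Abcg5, Abcg8 and Soat2 stand beside the enterocyte transcripts of those libraries given above. Of the 16 other enzymes none passed, but of all 18 estimates only 1 was above 0. The median log2 fold change of the 18 was -0.38, beside -0.09 over all genes tested. The 18 enzymes summed to 1882 ± 313 CPM in GB-pos and 2963 ± 556 CPM in SI-pos, of which Hmgcs1 made up 303 and 897 CPM. With RLE size factors the median of all genes in this comparison moved by 0.11 on the log2 scale.

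Among IL-25- cells 4 members were higher in the gallbladder, against 13% of all genes, and 7 were lower, against 11.7%. Higher were Abca1 (2.42 ± 0.43, adjusted p = 0.00137), Msmo1 (1.14 ± 0.24, adjusted p = 0.00385), Srebf1 (1.38 ± 0.38, adjusted p = 0.0191) and Fdft1 (0.82 ± 0.24, adjusted p = 0.0268). The genes whose exons overlap Srebf1 and Fdft1 also had higher means in GB-neg. Rai1 was 59.5 CPM against 26.8 CPM in SI-neg, and Ctsb 771 CPM against 282 CPM. Their part in the Srebf1 and Fdft1 values was not tested. Lower were Abcg8 (-4.96 ± 0.61, adjusted p = 9.18e-05), Abcg5 (-4.78 ± 0.56, adjusted p = 6.37e-05), Npc1l1 (-3.11 ± 0.44, adjusted p = 0.000348), Soat1 (-3.04 ± 0.39, adjusted p = 0.00014), Soat2 (-2.73 ± 0.49, adjusted p = 0.00137), Nr1h3 (-2.46 ± 0.77, adjusted p = 0.0322) and Ebp (-0.87 ± 0.27, adjusted p = 0.0324). Soat1 was thus 8.24 times as high in SI-neg as in GB-neg, although it did not pass between SI-pos and GB-pos (-0.63 ± 0.36, adjusted p = 0.229).

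Of those 11 calls, 7 held in each of 21 alternatives and 4 did not. Fdft1 was lost without SI-neg 2 or 3 or GB-neg 3, without SI-neg 3 and GB-neg 1 together and with limma-voom, and was 0.54 without GB-neg 3 (adjusted p 0.0118 to 0.12). Srebf1 was lost without SI-neg 3 (1.17), without GB-neg 2 (1.08) and without SI-neg 3 and GB-neg 1 together (0.000829 to 0.109). Nr1h3 was lost without SI-neg 2 or 3 or GB-neg 2 or 3 and without that pair, with estimates of -2.70 to -2.02 (0.00149 to 0.0981). Ebp held in 9 of 21, being lost among others with any 1 GB-neg library left out, or library 1 or 2 of either small intestine group, with estimates of -0.91 to -0.69 (0.0054 to 0.121). Abca1 was 3.20 without SI-neg 1.

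The difference of the gate step between tissues, tested as an interaction, passed for 6 members. In 2 the gallbladder step was the more positive, against 3.63% of all genes, and in 4 it was the more negative, against 5.6%. With RLE size factors the median of all genes in this test moved by 0.16 on the log2 scale, and 51.2% of the calls over all genes were positive instead of 39.3%. Abca1 (4.39 ± 0.62, adjusted p = 0.000713), Soat1 (2.41 ± 0.52, adjusted p = 0.011) and Msmo1 (-1.44 ± 0.34, adjusted p = 0.0166) held in 21 of 21 alternatives, with Abca1 at 3.61 without SI-neg 1. Hmgcs1 (-1.53 ± 0.35, adjusted p = 0.0158) was lost without SI-neg 3 and GB-neg 1 together (0.00393 to 0.0541). Abcg8 (-3.54 ± 0.86, adjusted p = 0.0202) held in 14 of 21 and was lost among others without SI-neg 1 (-3.46), GB-pos 1 (-3.06) or GB-pos 3 (-3.28), with -4.69 without GB-pos 2 (0.00166 to 0.171).
Npc1l1 (-2.09 ± 0.59, adjusted p = 0.0437) held in 8 of 21, being lost without each SI library, without GB-pos 3, without GB-neg 1 or 3, without SI-neg 3 and GB-neg 1 together, with RLE size factors (-1.92) and with no filter, among others, and was -2.87 without GB-pos 2 (0.00159 to 0.116). The steps of Cyp51 (-0.98 ± 0.32, adjusted p = 0.0749), Fdft1 (-0.92 ± 0.34, adjusted p = 0.115), Fdps (-0.70 ± 0.36, adjusted p = 0.266) and Sc5d (-1.32 ± 0.42, adjusted p = 0.0697) were not called different between the tissues, nor was that of Abcg5 (-1.67 ± 0.73, adjusted p = 0.188). Cyp51 passed without SI-neg 3 (0.0405 to 0.192), and Sc5d without GB-pos 2 and with limma-voom (0.00433 to 0.166).

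Per kb of exon, the make-up of the 35 members differed between the groups. The highest in SI-pos were Hmgcs1 at 195, Fdft1 at 111 and Cyp51 at 84.6 CPM per kb, and in GB-pos Fdft1 at 103, Hmgcs1 at 65.9 and Sqle at 45.5 CPM per kb. In SI-neg the order was Npc1l1 at 185, Stard4 at 47.4 and Abcg5 at 42.0 CPM per kb, and in GB-neg Stard4 at 40.6, Insig1 at 38.4 and Fdft1 at 36.5 CPM per kb. Synthesis enzymes thus held the first 3 places in both IL-25+ groups, and in IL-25- groups uptake, export and sensing genes held most of them. Abca1 was the lowest member in SI-pos, at 0.181 CPM per kb, and stood at 20.3 CPM per kb in GB-pos, while Abcg8 was the lowest there at 0.0361 CPM per kb. Reads of Fdft1, Cyp51, Abcg5 and Abcg8 in exons shared with other genes cannot be divided, as given above.

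Neighbouring pathways are given by their counts, to be read beside the 14.5% of all genes tested that were higher and 12.8% lower in SI-pos, and the 12.4% higher and 14.4% lower in GB-pos. Several of the counts lie near these shares. Of 10 genes that process SREBP or destroy sterol-regulated proteins, 1 was higher and 1 lower in SI-pos, and 2 were higher and 1 lower in GB-pos. Erlin1, which ties INSIG to the degradation machinery, rose in GB-pos from 23.5 ± 4.59 CPM to 81.7 ± 14.4 CPM (1.80 ± 0.22, adjusted p = 7.04e-05). Of 12 genes of the isoprenoid branch 1 was higher and 2 lower in SI-pos, and 2 were higher and 1 lower in GB-pos. Fnta, a subunit of the prenyl transferases, was the one higher in both (0.94 ± 0.24 and 1.11 ± 0.24, adjusted p = 0.012 and 0.00438).

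Fatty acid synthesis, which SREBP1 drives, was mixed: of 12 genes tested 3 were higher and 4 lower in SI-pos, and 2 were higher and 6 lower in GB-pos. Acly, which makes the acetyl-CoA that sterol and fatty acid synthesis share, rose in both (0.67 ± 0.16, adjusted p = 0.0075, and 1.94 ± 0.16, adjusted p = 2.9e-06), to 619 ± 59.8 CPM in GB-pos. Its small intestine call was lost in 1 of 22 alternatives, without SI-neg 3 and GB-neg 1 together (0.60, adjusted p = 0.0504, in a range of 0.00166 to 0.0504). Acss2, which makes acetyl-CoA from acetate, rose in SI-pos (1.01 ± 0.25, adjusted p = 0.00986) and fell in GB-pos (-0.94 ± 0.25, adjusted p = 0.0145), and this difference passed (-1.94 ± 0.36, adjusted p = 0.00406). The gallbladder call of Acss2 was lost without GB-pos 3 (-0.86) or GB-neg 2 (-0.80), with adjusted p of 0.00466 to 0.0581. The desaturases Fads1 (-2.90 ± 0.29 and -2.36 ± 0.28, adjusted p = 1.06e-05 and 4.93e-05) and Fads2 (-3.14 ± 0.52 and -2.91 ± 0.52, adjusted p = 0.000674 and 0.00107) fell in both.

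Of 18 other genes of sterol uptake, transfer and ester turnover 2 were higher and 3 lower in SI-pos, and 3 were higher and 5 lower in GB-pos. Stard5, a cytosolic sterol carrier of the same family as Stard4, rose in both (1.80 ± 0.28, adjusted p = 0.000357, and 3.21 ± 0.29, adjusted p = 4.94e-06), to 394 ± 91.4 CPM in GB-pos. Lrp1, a large lipoprotein receptor (-2.06 ± 0.29 and -3.37 ± 0.31, adjusted p = 0.000196 and 5.19e-06), and Nceh1, a cholesteryl ester hydrolase (-2.67 ± 0.37 and -2.93 ± 0.37, adjusted p = 0.000175 and 7.13e-05), fell in both. Lipa, the lysosomal acid lipase, fell in GB-pos (-3.06 ± 0.43, adjusted p = 0.000174) and was at -0.66 ± 0.40 in SI-pos.

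Of 6 other LXR targets 2 were higher and none lower in SI-pos, and none were higher and 3 lower in GB-pos. Smpdl3a, an LXR-induced phosphodiesterase, rose in SI-pos (2.08 ± 0.42, adjusted p = 0.00253) and fell in GB-pos (-2.32 ± 0.42, adjusted p = 0.00126), with a difference of -4.40 ± 0.59 (adjusted p = 0.000529). Cyp27a1, a mitochondrial sterol hydroxylase that makes an oxysterol, had the signs of Abca1. Cyp27a1 went from 11.2 ± 3.04 CPM in SI-neg to 2.57 ± 1.01 CPM in SI-pos (-2.13 ± 0.40, adjusted p = 0.00157) and from 1.69 ± 0.66 CPM in GB-neg to 61.7 ± 13.1 CPM in GB-pos (5.19 ± 0.45, adjusted p = 3.67e-06), a difference of 7.31 ± 0.60 (adjusted p = 1.96e-05). It belongs to a list of oxysterol enzymes of which 4 of 7 could be tested, 2 lower in SI-pos and 1 higher and 1 lower in GB-pos. Of 8 genes of chylomicron assembly, the route by which enterocytes send out absorbed sterol, none were higher and 2 lower in each gate. In both gates 0 of 8 estimates were above 0, with medians of -1.55 in SI-pos and -2.08 in GB-pos, beside -0.07 and -0.15 over all genes. The calls of Dgat1 and Sar1b in SI-pos and of Sar1b in GB-pos were lost in some alternatives (adjusted p up to 0.121, 0.156 and 0.102).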

How the data were processed

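Live single EpCAM+ cells were sorted by the IL-25 reporter, and single-end 50 bp reads were sequenced from Nextera XT libraries, which do not mark strand, per the labels' protocols. The authors deposited raw counts per Ensembl gene. STAR 2.7.2b, DESeq2 1.26 and GRCm38 are named in the submitters' processing notes, while the read counter, strand setting and annotation release are not given in the sources used here. The deposited table has 11 more columns, which no sample label matches, and these were left out. Totals were 23703449 to 64736650 counts, and rows without a match in GENCODE M21 held at most 0.119% of a library and stayed in its total.

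The 35 members and all gene lists were chosen with earlier results of these data known. Every member is named; values in each library are given for the 3 called members of a role with the widest change in either gate or between IL-25+ groups, for the transport genes Npc1l1, Npc1, Npc2, Soat1, Soat2, Stard4, Abcg5, Abcg8 and Abca1, and for interaction calls. Of each neighbouring list, genes with the lowest adjusted p or against the majority could be named. Counts of all 12 libraries were fitted with edgeR 4.0.16 in R 4.3.3 (TMM, filterByExpr with a minimum count of 10, robust quasi-likelihood F tests, two-sided, group as the only factor), and p-values were adjusted by Benjamini-Hochberg over 16636 genes per comparison. SE was taken as the absolute log2 fold change over the root of F. Alternatives were DESeq2 1.42.0, limma-voom (limma 3.58.1) with quality weights, RLE size factors, no filter, a filter of 5 CPM in 3 libraries, replicate blocks, the compared groups alone, leaving out each library, leaving out SI-neg 3 with GB-neg 1, and removing mitochondrial genes. The procedure was also run on simulated counts in which only a small set of genes differed between groups. Many more genes were called in these data, so that run does not show how accurate the procedure is here. Replicate libraries differed by more than sampling noise, with chi-square over degrees of freedom at 49.2 or more. Motifs and figures were made with Python 3.11.15.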

Additional observations from a re-analysis of the deposited data

Results flagged for a closer look

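The step from IL-25- to IL-25+ cells differed between gallbladder and small intestine, by edgeR's test of that difference itself, for 6 of the 35 genes. Over all genes tested, the gallbladder step was the more positive for 3.63% and the more negative for 5.6%. Of the 6 calls, 3 held in each alternative, which were Abca1, Soat1 and Msmo1. Those of Hmgcs1, Abcg8 and Npc1l1 were lost in some. As log2 differences, gallbladder minus small intestine, Abca1 had 4.39 and Soat1 2.41, and the gallbladder step was the more negative for Abcg8 (-3.54), Npc1l1 (-2.09), Hmgcs1 (-1.53) and Msmo1 (-1.44). Abca1 was the one whose step changed sign with a call on each side, from -2.03 in the small intestine to 2.36 in the gallbladder. For Hmgcs1 both steps were up and called, 2.87 and 1.34, and for Npc1l1 both were down and called, -1.36 and -3.45. Soat1 and Abcg8 were called in the gallbladder alone and Msmo1 in the small intestine alone. The gallbladder libraries also carry the HDM label that the small intestine libraries lack, and the tissue and that label cannot be told apart.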

How the results depend on the processing

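Over the alternatives no called member changed direction, and 11 of the 17 small intestine calls, 13 of the 19 gallbladder calls, 8 of 8 calls between IL-25+ groups, 7 of 11 between IL-25- groups and 3 of 6 interaction calls held in each one. The count of members higher in SI-pos was 13 and became 20 with limma-voom, and the 1 member higher in GB-pos than in SI-pos became 2 with DESeq2. Over all genes tested, the same counts went from 2405 to 3288 and from 1753 to 2571. Leaving out SI-neg 3 and GB-neg 1 together left 2 of the 4 members higher in GB-neg than in SI-neg and 1 of the 4 with a negative interaction. Over all genes tested, the same counts went from 2160 to 1485 and from 932 to 662. Leaving out 1 library gave 9 to 14 higher and 3 to 5 lower in SI-pos, 11 to 14 higher and 4 to 7 lower in GB-pos, 1 higher and 7 to 8 lower between IL-25+ groups, 2 to 7 higher and 5 to 7 lower between IL-25- groups, and 2 positive with 2 to 6 negative interactions. Of the 17634 to 17825 genes tested in these fits, 1781 to 2546 were higher and 1259 to 2256 lower in SI-pos. In GB-pos 1637 to 2091 were higher and 1837 to 2378 lower. Between IL-25+ groups 1157 to 1823 were higher and 1583 to 2334 lower, and between IL-25- groups 1607 to 2315 and 1311 to 1931. Interactions over all genes were positive for 388 to 731 and negative for 662 to 855. The range of 2 to 7 came from leaving out SI-neg 3 and GB-pos 2, and the interaction count of 2 from leaving out SI-neg 1 or GB-pos 3. The cause of these changes was not tested. Of 114 member values that were not called, 34 changed sign under some alternative, and none of those changes was called.

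Replicate numbers are shared by the groups. For 18 pairs of libraries with the same number, deviations from the group means were correlated at -0.0518 to 0.162, with 1 pair over 0.1. Between GB-pos and GB-neg, same-number pairs had 0.0939, 0.0188 and 0.162, and other pairs -0.179 to 0.0957. Between SI-pos and SI-neg, same-number pairs had -0.0281 to 0.0256, and other pairs -0.0624 to 0.0618. With 3 libraries per group these values cannot settle whether libraries of the same number are paired. With the number as a replicate block, 13 members were higher and 4 lower in SI-pos, 13 higher and 5 lower in GB-pos, 1 higher and 7 lower between IL-25+ groups, 4 higher and 6 lower between IL-25- groups, and 2 interactions were positive and 3 negative. Of all 16636 genes, 2259 were then higher and 1995 lower in SI-pos, and 1887 higher and 2187 lower in GB-pos. Between IL-25+ groups 1544 were higher and 1996 lower, between IL-25- groups 1996 and 1800, and 533 interactions were positive and 807 negative. The block ended the calls of Hsd17b7 in GB-pos (adjusted p = 0.0755), Ebp between IL-25- groups (0.0537) and the Abcg8 interaction (0.0531). With the block nested in tissue 2 member interactions were negative, beside 789 over all 16636 genes. Depth limits Abcg5 and Abcg8 in GB-pos, with 1 to 19 counts per library.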
